A study of Homo sapiens with 6 samples.

Results

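The RNAs described here are 7SL, BC200 and the Y RNAs, a group of small non-coding RNAs made by RNA polymerase III. They were taken from the count table by row name, as 7SLRNA, BC200, HY1, HY3, HY4 and HY5, and all 6 rows were present among 15641. Each row adds up the reads over all genomic copies that carry its name, so a value belongs to a family of the gene and its copies. The libraries hold RNA of the chromatin fraction of cell line H9, a widely used line of human embryonic stem cells. There were 3 libraries labelled naïve (naive below) and 3 labelled primed. The labels give all 6 the same growth text, in RSeT medium for the naive condition, so the primed state rests on the treatment label alone. Genes that mark naive or primed cells are not rows of this repeat table, and the cell state was not checked with them. Whether the 6 libraries stem from independent cultures is not given in the labels, so each p-value reflects the spread among these libraries, part of which may be technical. Values across replicates are listed in the order 1, 2, 3.

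7SL is the RNA of the signal recognition particle, which brings ribosomes that make secreted and membrane proteins to the endoplasmic reticulum. Alu elements descend from 7SL, first as single units (monomers, the FLAM, FRAM and FAM rows) and then as paired units (dimers). BC200 is a primate RNA that arose from an Alu monomer, is best known from neurons and acts there as a repressor of translation. The Y RNAs, numbered 1, 3, 4 and 5 in humans, bind the Ro60 protein and have been linked to RNA quality control and to the start of DNA replication. 7SL and BC200 act in the cytoplasm, and 7SL is also assembled with proteins in the nucleolus.

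The reference RNAs of HY1 and HY4 are shown because their sequences bear on how far their reads can be told apart. They come from GENCODE release 29 on GRCh38, which need not be the build behind the counts. In the pair of Y RNAs below, capitals mark the run with which both begin and the longest run they share within their last 30 bases.
RNY1: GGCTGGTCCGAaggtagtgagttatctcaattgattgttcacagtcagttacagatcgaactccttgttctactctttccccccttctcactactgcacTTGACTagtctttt
RNY4: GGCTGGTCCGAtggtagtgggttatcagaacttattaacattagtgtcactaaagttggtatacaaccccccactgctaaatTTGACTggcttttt
Both begin with the same 11 bases and share a run of 6 bases near the 3′ end, and in a Y RNA the 5′ and 3′ ends pair to form a stem. RNY1 (113 bases) lies on chromosome 7 from 148987136 to 148987248 on the minus strand. RNY4 (96 bases) lies on the same chromosome from 148963315 to 148963410 on the plus strand, and neither overlaps another annotated gene. RNY1 was 63.7% identical to RNY4 in an end-to-end alignment, and they shared 0 words of 20 bases. GENCODE names 677 7SL copies of the RN7SL pseudogene type, whose reads the 7SLRNA row may hold. It also lists 16, 15 and 22 names of the RNY1, RNY3 and RNY4 pseudogene type, whose reads the Y RNA rows may hold. Copies under other names were not counted. RNY5, the reference gene of HY5, is 84 bases long in RefSeq.

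Total counts were 9748202, 17791046 and 16700953 across the naive replicates, against 7192242, 118793 and 8106871 across the primed replicates. Primed library 2 is therefore shallow, and 3 counts in it stand for 16.8 CPM (counts over the library total in units of 1e6, with that total scaled by TMM, which assumes that most rows do not change). Alpha satellite took 25.3% to 42.9% of counts of the naive replicates and 0.221% to 0.625% of the primed replicates, which lowers every other share in naive libraries. Ribosomal RNA took 0.169% to 6.08% in naive and 4.04% to 17.7% in primed libraries. In all, 3219 rows passed the filter on low counts and were tested, and all 6 rows described here passed it, with libraries above its limit of 1.12 CPM in both groups.

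None of the 6 rows passed the test between naive and primed cells with TMM scaling (0 of 6 at an adjusted p under 0.05 in edgeR's quasi-likelihood F-test). Over all tested rows the share called was 12.7%, with 4.94% higher and 7.77% lower in naive cells (159 and 250 rows), which became 8 and 7 rows without primed library 1, 56 and 122 without naive library 2, and 238 and 413 without naive library 1. DESeq2 called 0 of the 5 rows to which it gave an adjusted p, HY5 having none, against 10% of the 2087 rows with an adjusted p in that test. At an unadjusted p under 0.05 the edgeR model counted 1 of the 6, HY1, against 31.6% of all tested rows. The log2 changes of 7SLRNA, BC200, HY1, HY3 and HY4 were all below 0 and that of HY5 was above 0, with a median of -0.41 against -0.0046 over all tested rows. That background mixes 2 kinds of row. Of the 1265 tested rows that are not simple repeats, to which these 6 belong, 131 were called higher and 15 lower, with a median of 0.21. Of the 1954 tested simple repeats, 28 were called higher and 235 lower, with a median of -0.34. In bulk chromatin libraries, fewer cells with an RNA, less RNA per cell and less of it in this fraction cannot be told apart. Higher or lower in naive cells refers to this fraction throughout.

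7SLRNA, the most abundant of the 6, stood at 300.2, 354 and 293 CPM across the naive replicates, against 611, 252 and 409 CPM across the primed replicates. The naive libraries lay close together, while the primed libraries lay on both sides of them, with library 2 lowest and library 1 highest, so the groups overlapped. The means were 316 ± 33.3 CPM over the naive replicates and 424 ± 180 CPM over the primed replicates (SD, n = 3 each). The log2 change was -0.48 ± 0.24 (SE; edgeR adjusted p = 0.189), a fold of 0.718 with a 95% interval of 0.502 to 1.03. The low value of primed library 2 rests on 45 counts, with a 95% counting interval of 184 to 337 CPM that reaches below the naive range and into it. Without that library 7SLRNA passed as lower in naive cells (log2 -0.68, edgeR adjusted p = 0.0360), and without primed library 1 its change shrank to -0.14 (adjusted p = 0.778).

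BC200 stood at 66.1, 54.8 and 59.5 CPM across the naive replicates, against 86.5, 33.6 and 81.9 CPM across the primed replicates. Primed libraries 1 and 3 lay above all naive libraries and primed library 2, with 6 counts, lay below them. The means were 60.1 ± 5.69 CPM over the naive replicates and 67.3 ± 29.3 CPM over the primed replicates (SD, n = 3 each), and the log2 change was -0.37 ± 0.20 (SE; edgeR adjusted p = 0.234). The fold of 0.776 had a 95% interval of 0.573 to 1.05. As for every row, the fold comes from the fit to counts and need not equal the quotient of the means. Those means weigh primed library 2, with 6 counts, like the deeper libraries. Without primed library 2 the log2 change was -0.47 with an edgeR adjusted p of 0.0504.

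HY1 came nearest to the threshold. It stood at 47.8, 44.7 and 43.0 CPM across the naive replicates, against 66.7, 72.7 and 56.8 CPM across the primed replicates. Every naive library lay below every primed one, which was also true of HY4. Over all tested rows, 11% had all naive libraries below all primed ones and 19.4% had them above, 30.4% in all. The HY1 means were 45.1 ± 2.44 CPM over the naive replicates and 65.4 ± 8.05 CPM over the primed replicates (SD, n = 3 each). The log2 change was -0.48 ± 0.15 (SE; edgeR adjusted p = 0.0589), a fold of 0.716 with a 95% interval of 0.567 to 0.904. HY1 did not pass in any of the 6 fits that left out 1 library, between -0.60 and -0.42.

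HY3, another of the Ro60-binding Y RNAs, stood at 53.1, 46.4 and 45.8 CPM across the naive replicates, against 62.2, 39.2 and 48.7 CPM across the primed replicates. The groups overlapped, with primed library 2 lowest at 7 counts. The log2 change was -0.15 ± 0.17 (SE; edgeR adjusted p = 0.592), a fold of 0.903 with a 95% interval of 0.696 to 1.17. Without primed library 1 its direction turned (log2 0.0302, edgeR adjusted p = 0.973).

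HY4 stood at 18.5, 13.7 and 13.3 CPM across the naive replicates, against 21.1, 28.0 and 19.4 CPM across the primed replicates. The groups did not overlap, but the counting interval of primed library 2, which holds 5 counts, ran from 9.08 to 65.3 CPM. The log2 change was -0.46 ± 0.24 (SE; edgeR adjusted p = 0.202), a fold of 0.725 with a 95% interval of 0.506 to 1.04.

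HY5 was rare, with 13, 16 and 31 counts across the naive replicates, against 9, 0 and 12 counts across the primed replicates. In CPM this was 1.48, 1.43 and 2.18 in naive and 1.14, 0 and 1.20 in primed libraries. The naive libraries lay above the primed ones, but the 0 of primed library 2 allows up to 16.8 CPM at the limit of 3 counts, and its two-sided 95% counting interval reaches 20.6 CPM, both above every naive value. The log2 change was 0.58 ± 0.42 (SE; edgeR adjusted p = 0.379), with a 95% interval from -0.35 to 1.50.

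**Figure D1:**
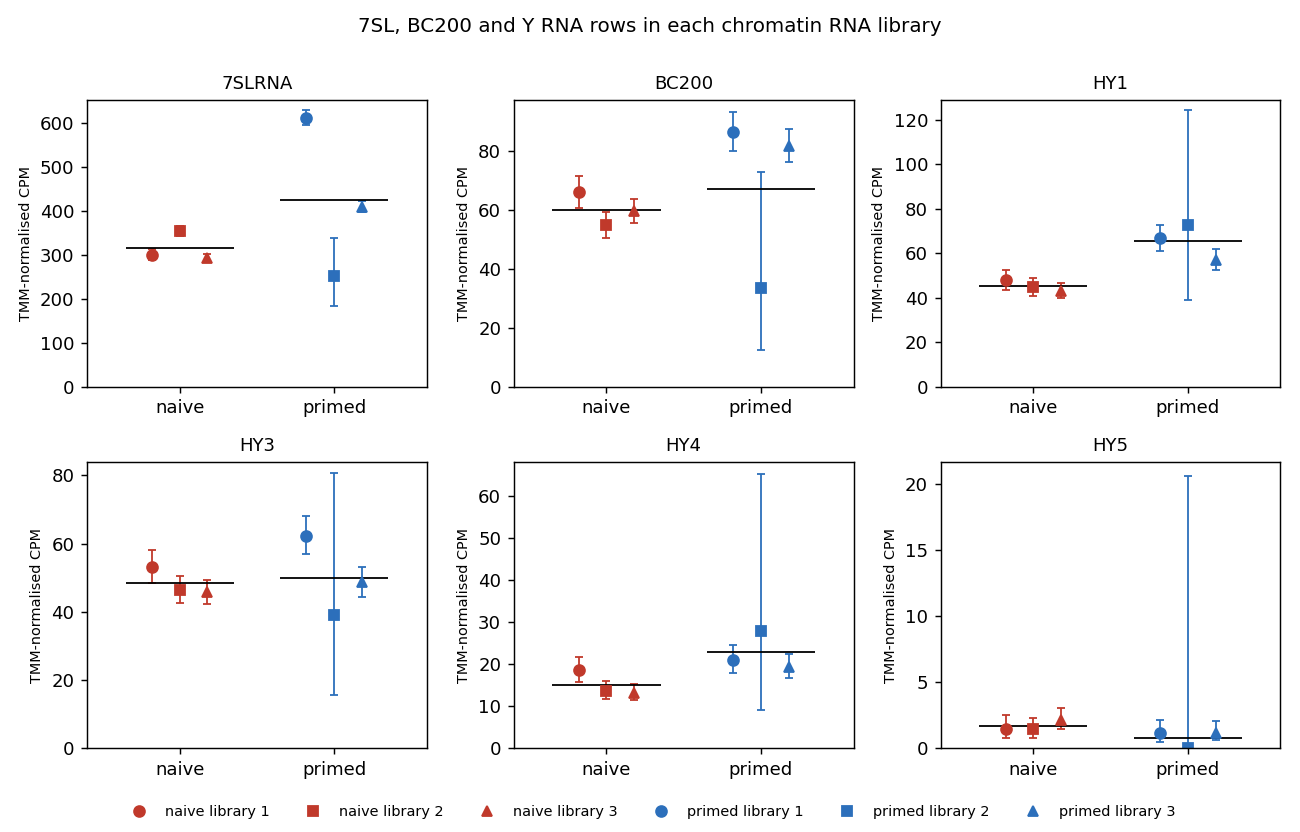
TMM-normalised CPM (vertical axis, from 0) of the 6 rows in the 3 naive libraries and the 3 primed libraries, with 1 panel per row; bars are 95% counting intervals and black lines are group means. HY1 and HY4 lie lower in every naive library, 7SLRNA, BC200 and HY3 overlap between the groups, and primed library 2 has by far the widest intervals.

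**Figure D2:**
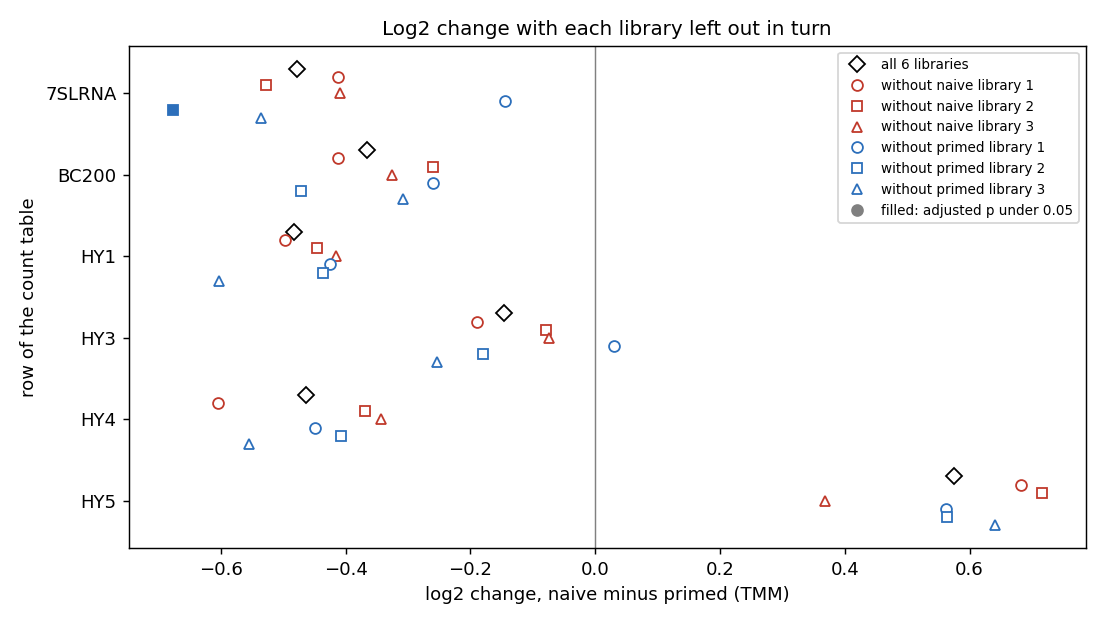
Log2 change of naive minus primed (horizontal axis) for each row with all 6 libraries and with 1 library left out in turn; filled symbols have an adjusted p under 0.05. The value of 7SLRNA moves between -0.68 without primed library 2, its filled point, and -0.14 without primed library 1, and HY1 keeps between -0.60 and -0.42.

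The size of these changes depended on the scaling of the libraries. With the library total as the only scaling, the log2 changes became -1.10 for 7SLRNA, -0.92 for BC200, -1.11 for HY1, -0.72 for HY3, -1.06 for HY4 and 0.0136 for HY5. The 5 rows below 0 then passed as lower in naive cells, with edgeR adjusted p of 0.000430, 0.00423, 0.000977, 0.0385 and 0.0133 in that order. Without primed library 1 or primed library 3 this count of 5 was 2 of 6, where 394 of 3472 and 686 of 3432 tested rows were called lower. Without naive library 2 or naive library 3 the count was 3 of 6, where 856 of 3547 and 969 of 3515 tested rows were called lower. With all libraries in that scaling, the median of all tested rows was -0.61 and 32.6% of them were called lower, against 0.870% called higher. Relative to that median, 7SLRNA was at -0.49 and HY1 at -0.50, close to the -0.47 and -0.48 that TMM gives relative to its own median. RLE and upper-quartile factors moved HY1 just past the threshold as lower (log2 -0.52, edgeR adjusted p = 0.0490 and -0.57, 0.0412) and left the other 5 rows short of it. The shares of all tested rows called lower were 8.08% and 10.7% under these factors. With simple repeats left out of the fit, the log2 changes were -0.74 for 7SLRNA, -0.61 for BC200, -0.69 for HY1, -0.38 for HY3, -0.66 for HY4 and 0.38 for HY5. HY1 passed as lower there (edgeR adjusted p = 0.0378) and the other 5 rows did not, with 1.34% of the 1265 rows tested in that fit called lower.

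**Figure D3:**
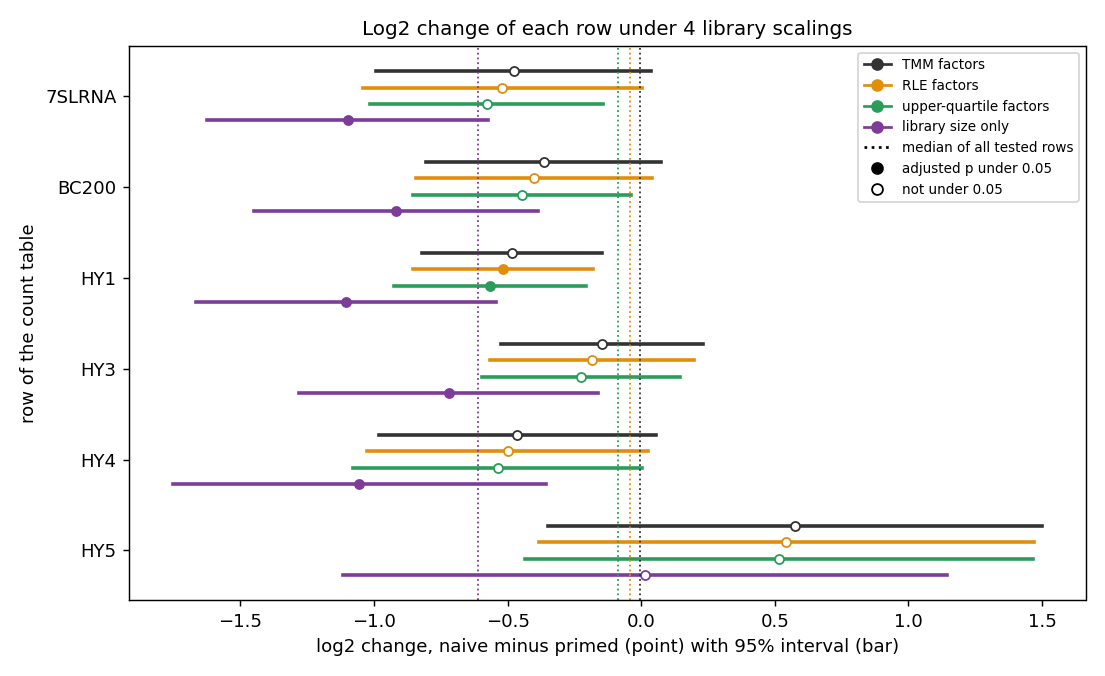
Log2 change of naive minus primed with its 95% interval (horizontal axis) for each row under 4 scalings; dotted lines are the medians of all tested rows and filled points have an adjusted p under 0.05. Library size alone shifts the rows and the median of all rows together, by about the same amount.

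As a share of all counts, the 6 rows together took 0.0439%, 0.0323% and 0.0390% across the naive replicates, against 0.0933%, 0.0640% and 0.0764% across the primed replicates. The groups did not overlap, as was true with naive lower of 34.3% of all tested rows on this scale, and the 95% Wilson interval for primed library 2 was 0.0511% to 0.0801%. With alpha satellite and ribosomal RNA taken out of the total, the shares were 0.0640%, 0.0627% and 0.0596% in naive and 0.114%, 0.0671% and 0.0834% in primed libraries. The naive shares were still the lower ones, and primed library 2, with 76 counts in the 6 rows, now lay close to them. On this second scale, neither counting intervals nor the share of all tested rows without overlap were computed. The difference between the means was -0.0395 percentage points over all counts and -0.0260 points outside alpha satellite and ribosomal RNA. These sums over chosen rows were not tested.

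7SLRNA supplied most of the counts of the 6 rows in all 6 libraries, with shares that overlapped between the states. It supplied 64.8% ± 3.61 over the naive replicates and 65.8% ± 6.41 over the primed replicates (SD, n = 3 each). BC200 supplied 12.4% ± 1.56 over the naive replicates and 10.5% ± 2.695 over the primed replicates. Divided by the length of the reference RNA in RefSeq, 7SLRNA was also highest, at 1056 ± 111 CPM per kilobase over the naive replicates and 1418 ± 603 over the primed replicates (SD, n = 3 each). In naive libraries HY3 (475 ± 39.7), HY1 (400 ± 21.6), BC200 (301 ± 28.5), HY4 (158 ± 30.5) and HY5 (20.2 ± 4.95 CPM per kilobase) followed, and the values of no 2 neighbours in that order overlapped. In primed libraries HY1 (579 ± 71.3) stood next to 7SLRNA and was followed by HY3 (491 ± 114), BC200 (337 ± 147), HY4 (238 ± 47.1) and HY5 (9.26 ± 8.03 CPM per kilobase). There HY1 and HY3, HY3 and BC200, and BC200 and HY4 overlapped. The copies counted in a row differ in number and length, so these levels rank the rows only roughly.

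Ratios of counts within a library do not depend on the scaling. With 3 libraries against 3, an exact permutation test cannot go below p = 0.1, so ratios are given as values with no test. The ratio of BC200 to 7SLRNA was 0.220, 0.155 and 0.203 across the naive replicates, against 0.142, 0.133 and 0.200 across the primed replicates, which overlapped. The ratio of the 4 Y RNA rows to 7SLRNA averaged 0.353 ± 0.0514 over the naive replicates and 0.370 ± 0.163 over the primed replicates (SD, n = 3 each), also with overlap. Primed library 2, with 25 over 45 counts, stood at 0.556, against 0.247 and 0.308 in primed libraries 1 and 3. The mean log2 ratio differed by 0.0031 between naive and primed libraries, and by 0.34 without primed library 2.

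The ratio of HY3 to HY1 did not overlap between the groups. It was 1.11, 1.04 and 1.07 across the naive replicates, against 0.934, 0.538 and 0.858 across the primed replicates. HY3 thus had more counts than HY1 in all naive libraries and fewer in all primed ones. The exact 95% counting intervals of primed library 1 (0.824 to 1.06) and of naive library 2 (0.916 to 1.18) overlap, and that of primed library 2 runs from 0.182 to 1.45. Those of naive libraries 1 (0.973 to 1.27) and 3 (0.954 to 1.19) also include a ratio of 1. Only the interval of primed library 3 (0.759 to 0.970) excludes 1, so in every other library the order of HY3 and HY1 lies within counting error. The mean log2 ratio differed by 0.49 between naive and primed libraries, and by 0.26 without primed library 2. Among Y RNA counts, HY1 made up 40.9% ± 1.30 over the naive replicates and 47.04% ± 4.32 over the primed replicates, and HY3 made up 43.9% ± 0.161 over the naive replicates and 35.9% ± 6.99 over the primed replicates (SD, n = 3 each). The primed means include library 2, with 25 Y RNA counts, of which HY1 made up 52% and HY3 28%. In primed libraries 1 and 3, HY1 made up 44.1% and 45.0%, and HY3 made up 41.2% and 38.6%. The ratio of HY3 to HY1 was chosen after its values had been seen.

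**Figure D4:**
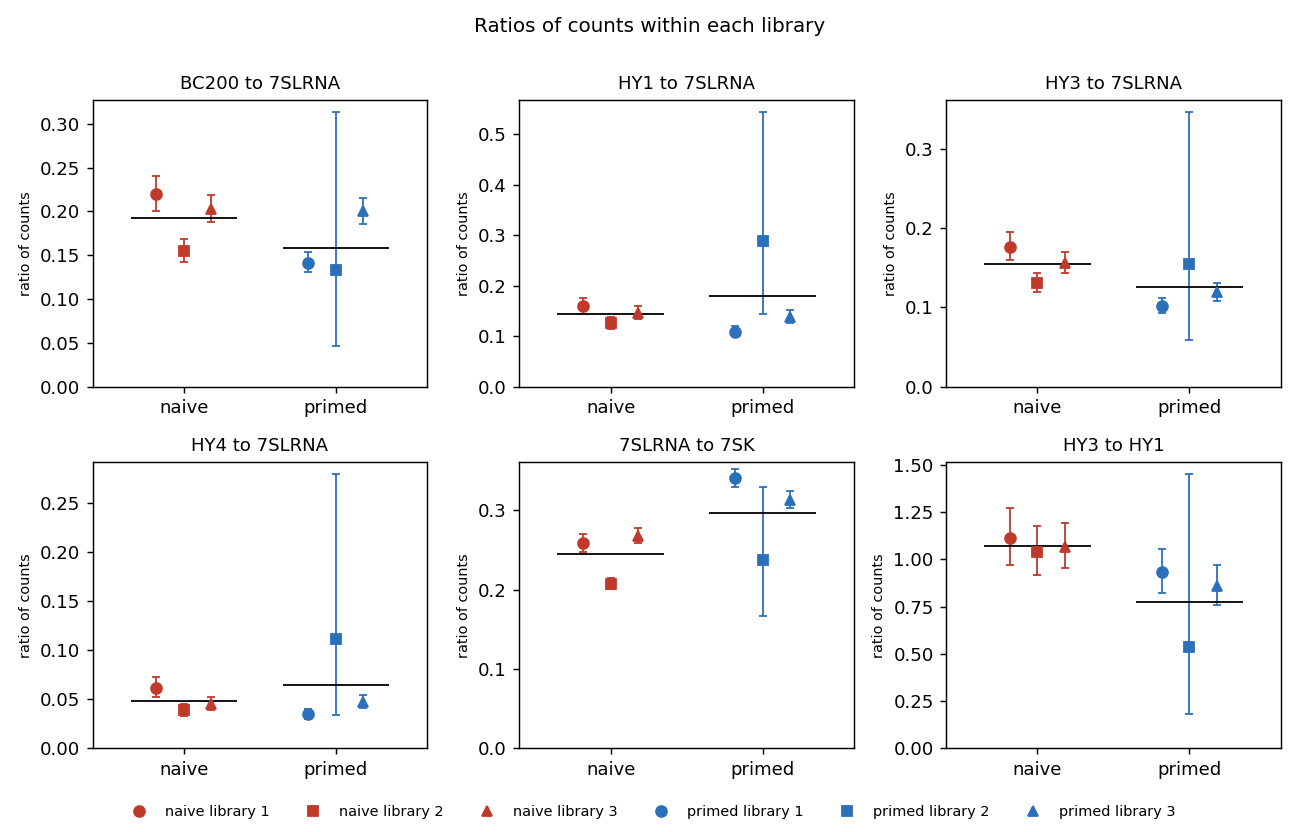
Ratio of counts (vertical axis, from 0) within each of the 3 naive and 3 primed libraries for 6 pairs of rows; bars are exact 95% counting intervals and black lines are group means. The HY3 to HY1 ratio lies above 1 in naive and below 1 in primed libraries, but only the interval of primed library 3 excludes 1. The other 5 ratios overlap between the groups.

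The rows of 7SK, U6, 5S and tRNA, from lists of related rows, serve for comparison. RNA polymerase III makes 7SK, U6 and 5S RNA, and whether it makes every tRNA row, such as those marked (m), was not checked. The 7SK RNA, which holds the elongation factor P-TEFb inactive in the nucleus, gave a log2 change of -0.08 (edgeR adjusted p = 0.814). U6, the spliceosomal RNA, gave 0.08 (0.808) and 5S ribosomal RNA gave 0.12 (0.584). The ratio of 7SLRNA to 7SK was 0.258, 0.207 and 0.268 across the naive replicates, against 0.340, 0.237 and 0.313 across the primed replicates. Only primed library 2, with its 45 counts of 7SLRNA and 190 of 7SK, fell within the naive range, and the difference of the mean log2 ratios was -0.28, or -0.43 without that library. Of 62 tRNA rows, 30 were tested, of which 4 were lower in naive cells and 0 higher, with a median of -0.39. These 4 were tRNA-Ser-TCA(m), tRNA-Gly-GGY, tRNA-Gln-CAA_v and tRNA-Arg-AGG, with log2 changes of -2.16, -1.89, -1.84 and -1.50 (edgeR adjusted p of 0.0393, 0.0133, 0.0304 and 0.0276). The 2 most abundant tRNA rows were tRNA-Ser-TCA(m) and tRNA-Leu-TTA(m), which gave -1.56 (adjusted p = 0.0700) and did not pass. Without primed library 1 or naive library 2, tRNA-Gly-GGY alone of the 4 still passed (log2 -2.22 and -1.64, edgeR adjusted p = 0.0310 and 0.0115), and tRNA-Arg-AGG also fell short without naive library 3 (adjusted p = 0.0690) or primed library 3 (0.0738).

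In the TMM fit of all 6 libraries used above, the Alu rows, which descend from 7SL, gave no call. Whether their changes differ from that of 7SLRNA was not tested. The 4 Alu monomer rows had log2 changes of -0.05 (FRAM), -0.08 (FLAM_C), 0.02 (FLAM_A) and -0.01 (FAM), and 0 of 4 passed (edgeR adjusted p of 0.809, 0.741, 0.919 and 0.969). All 45 Alu dimer rows were tested, 0 passed and 41 lay below 0, with a median of -0.19 and a range from -1.26 to 0.20. AluYk3 (-1.26, edgeR adjusted p = 0.133) and AluYa5 (-0.52, 0.0785) lay farther from 0 than 7SLRNA, and AluYk3 was picked after its value was seen. The 2 most abundant dimers, AluSx and AluJb, gave -0.33 (edgeR adjusted p = 0.230) and -0.04 (0.861). With library size alone, 41 of 45 dimer rows and 3 of 4 monomer rows were called lower, against 1051 of 3219 tested rows. With TMM but without primed library 2, 4 of 45 dimers and 0 of 4 monomers were called lower, against 357 of 3724. The ratio of 7SLRNA to the 4 monomer rows was 0.0539, 0.0653 and 0.0511 across the naive replicates, against 0.0951, 0.0524 and 0.0672 across the primed replicates. Primed library 1 stood apart with the highest ratio, and primed library 2 lay within the naive range. Small RNAs made by polymerase II, the spliceosomal and nucleolar U RNAs, had 2 of 9 tested rows lower in naive cells and a median of -0.31. U4, of the spliceosome, gave -1.68 and U17, which takes part in ribosomal RNA processing, gave -1.62 (edgeR adjusted p of 0.0462 and 0.0302). Neither passed without primed library 1 (adjusted p of 0.395 and 0.173) or primed library 3 (0.0543 and 0.0711), U4 also fell short without naive library 2 (0.0668) or naive library 3 (0.0646), and DESeq2 called 0 of the 9 such rows with an adjusted p. Of the rows that did not pass, the spliceosomal U1, U2 and U5 gave -0.09, -0.31 and -0.05 (edgeR adjusted p of 0.830, 0.257 and 0.931). U7, which acts in histone mRNA processing, gave -0.28 (0.493), and the nucleolar U3, U13 and U14 gave 0.26 (0.441), -0.60 (0.1001) and -0.42 (0.576), while U8 fell below the filter.

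**Figure D5:**
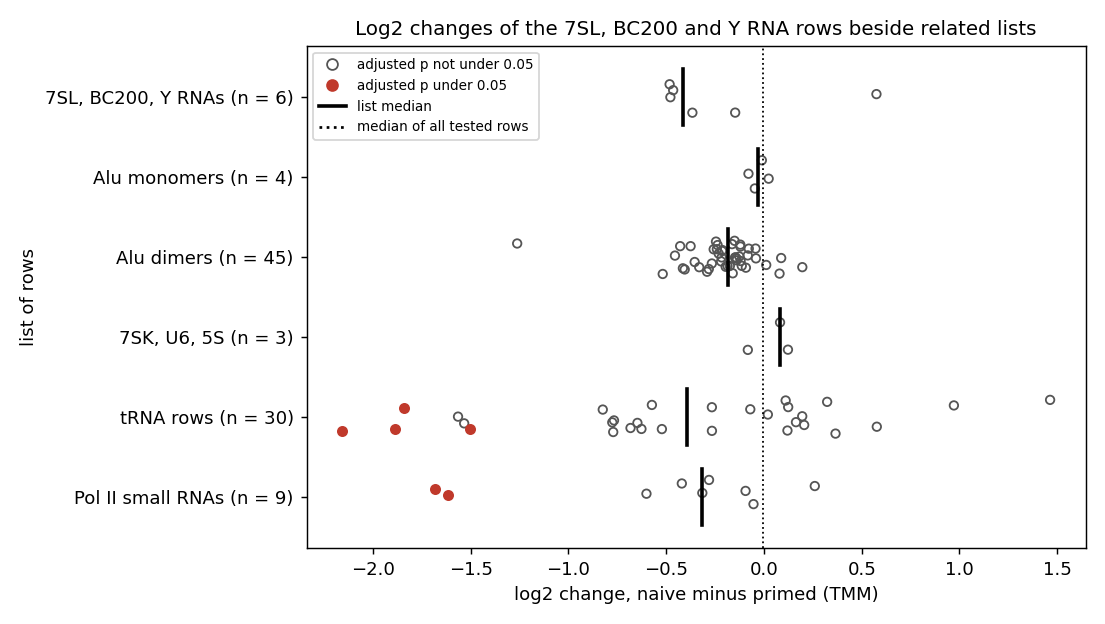
Log2 change of naive minus primed (horizontal axis, TMM) of every tested row in 6 lists; filled points have an adjusted p under 0.05, thick lines are list medians and the dotted line is the median of all tested rows. The 7SL, BC200 and Y RNA rows have a median of -0.41, the 30 tested tRNA rows have a median of -0.39 and spread from -2.16 to 1.46, and the 4 Alu monomers lie near 0.

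Rows whose level followed each RNA most closely over the 6 libraries were sought by the Pearson correlation of log2 CPM, among about 750 other named repeats of at least 50 CPM. For 7SLRNA they were AluSx (r = 0.986), the L1 family L1MA2 (0.981) and AluSc (0.980). For BC200 they were the beta satellite BSR (0.983), FLAM_C (0.980) and the DNA transposon Charlie18a (0.978). X32_DNA was the closest row to both HY1 (0.971) and HY4 (0.938), followed for HY1 by AluSc5 (0.964) and OldhAT1 (0.932), and for HY4 by HY1 (0.936) and AluYa5 (0.870). For HY3 they were MER44A (0.991), MER34B-int (0.959) and MER131 (0.952). For HY5 they were MER41A, MER5B and PRIMA4-int (0.995 each). Without primed library 2, where HY5 had 0 counts, these values were 0.927, 0.933 and 0.978. Over all rows named here, the values then ranged from 0.697 (AluYa5 with HY4) to 0.993 (MER44A with HY3). Each row was picked as among the closest of about 750, which alone favours high values. The values over all libraries describe 6 points that share libraries and scaling, and the shallow primed library 2 weighs on them. Without it, the correlation of 7SLRNA with HY1 was 0.931, against 0.244 over all 6 libraries. Other pairs moved the other way. The correlation of 7SLRNA with HY3 fell from 0.836 to 0.767, and that with HY5 turned from 0.357 to -0.772.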

How the data were processed

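Chromatin-fraction RNA was sequenced with a directional kit, per the labels' protocols. The authors deposited raw counts per repeat name. Per the submitters' processing notes the tools were Trimmomatic 0.39, STAR 2.7.8a, featureCounts and Subread 2.14.2. The genome build, repeat annotation, strand setting and handling of multi-mapping reads were not given in the sources used here, so near-identical copies may share reads between rows, and sense and antisense reads may not be separate.

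Columns were matched to samples by title and grouped by the treatment label. Counts were fitted with edgeR 4.0.16 (R 4.3.3): filterByExpr, TMM factors, and the quasi-likelihood test (naive minus primed) over all 3219 tested rows, Benjamini-Hochberg adjustment, threshold 0.05. The SE is the log2 change divided by the square root of F. Alternatives used DESeq2 1.42.0 and other settings. The procedure was tested on simulated counts. Ratios used 0.5 added counts on the log2 scale. Counting intervals are exact Poisson or binomial, or Wilson for shares, at 95%, and cover counting error only. Correlations used log2 CPM with a prior count of 2. The members and the lists were chosen with earlier results of these data known. Rows named are the 6 members, the rows of the short lists, called and the 2 most abundant rows of the long ones, and the 3 most alike rows. Replicates within a group differed by more than sampling noise. Reference RNAs come from GENCODE 29, aligned with Biopython 1.88. Some reference sequences are not reported here.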

Additional observations from a re-analysis of the deposited data

How the results depend on the processing

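Most log2 changes kept their direction, and the calls moved with scaling, with the rows fitted and with single libraries; the cause was not tested. With library size alone the changes were -1.10 for 7SLRNA, -0.92 for BC200, -1.11 for HY1, -0.72 for HY3 and -1.06 for HY4. There 5 of the 6 rows passed as lower in naive cells, while 1051 of 3219 tested rows were called lower and their median was -0.61. HY1 alone passed, making the count 1 of 6, with simple repeats left out (-0.69, with 7SLRNA at -0.74, BC200 at -0.61 and HY3 at -0.38), with RLE factors (-0.52), with upper-quartile factors (-0.57) and with alpha satellite and ribosomal RNA left out (-0.53). In that order, these fits called 17 of 1265, 260 of 3219, 343 of 3219 and 296 of 3361 tested rows lower. HY1 did not pass with DESeq2 (-0.51), without a filter (-0.49) or with a CPM of at least 1 in 3 libraries (-0.49). Its edgeR adjusted p ranged from 0.000977 with library size alone to 0.312 without primed replicate 1. With each library left out in turn, the change ranged from -0.68 to -0.14 for 7SLRNA, from -0.47 to -0.26 for BC200, from -0.60 to -0.42 for HY1, from -0.25 to 0.0302 for HY3, from -0.60 to -0.34 for HY4 and from 0.37 to 0.72 for HY5, with 0 or 1 of the 6 rows called. The sole call, 7SLRNA, came without primed replicate 2, where 357 of 3724 tested rows were called lower. HY3 turned above 0 without primed replicate 1. Fits with library size alone and 1 library fewer were added after seeing the data. Leaving out naive 1, 2, 3 and primed 1, 2, 3 in turn, they gave -1.17, -1.03, -1.11, -0.87, -1.25 and -1.13 for 7SLRNA, -1.10, -0.74, -0.95, -0.87, -1.03 and -0.78 for BC200, -1.25, -0.94, -1.13, -1.17, -1.002 and -1.22 for HY1. They gave -0.90, -0.55, -0.73, -0.64, -0.74 and -0.77 for HY3, -1.34, -0.84, -1.01, -1.16, -0.96 and -1.13 for HY4, 0.02, 0.26, -0.30, -0.068, -0.0079 and 0.17 for HY5. There 2 to 5 of the 6 rows were called. Of all tested rows, 394 of 3472 (without primed replicate 1) to 1276 of 3495 (without naive replicate 1) were called lower. 7SLRNA and HY1 were called in every such fit. Only 2 rows passed without primed replicate 1 or primed replicate 3, and 3 passed without naive replicate 2 or naive replicate 3. HY5 turned below 0 in 3 of these fits.

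The replicate numbers of the titles do not pair the libraries by the labels. The correlation of deviations was 0.146, 0.0867 and 0.0659 for the same-numbered libraries 1 to 3, and each library correlated best with its own number, which is only a hint from the data. With the replicate block, 2 of the 6 rows passed, 7SLRNA (-0.41, edgeR adjusted p = 0.0473) and HY1 (-0.48, 0.0323), and 264 repeats were called higher and 374 lower. Over all tested rows, 159 were called higher and 250 lower. These became 104 and 343 with upper-quartile factors, 28 and 1051 with library size alone, 95 and 114 with DESeq2, 264 and 596 without a filter, and 31 and 17 with simple repeats left out. Random thinning of every library to the depth of primed replicate 2 left 2 higher and 0 lower, where fewer counts limit the test. At that depth 7SLRNA was the only one of the 6 rows still tested (-0.44, edgeR adjusted p = 0.547). Leaving out 1 library gave 8 to 238 higher and 7 to 413 lower with TMM, lowest without primed replicate 1. With library size alone, in the same order, it gave 28, 28, 16, 8, 29, 22 higher and 1276, 856, 969, 394, 1162, 686 lower. The difference in the share of the 6 rows was -0.0260 points without alpha satellite and ribosomal RNA in the total, against -0.0395, and ranged from -0.0465 to -0.0318 with 1 library left out. Differences of the log2 ratios moved by less than the replicate spread with 1 added count or 1 library left out, although that of the Y RNA sum to 7SLRNA, 0.0031, changed sign among them (-0.25 to 0.34).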
